A study of Mus musculus with 2 samples.

Results

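The 10 imprinted genes H19, Igf2, Peg3, Snrpn, Meg3, Kcnq1ot1, Mest, Grb10, Plagl1 and Peg10, with their control regions, were followed through maps of open chromatin in mouse thymus. They were picked by name, with no threshold on a measured value but with earlier results of these data known, and are 10 of the 21938 protein-coding and 10155 long noncoding genes of the GENCODE M21 annotation. Every strict peak and footprint within the gene body and 20000 bp on either side was taken, in the mm10 genome build. DNase-seq, which cuts DNA with DNase I wherever chromatin is open and sequences the cut ends, had been run on whole thymus of male B6CASTF1/J mice aged 2 months. B6CASTF1/J is the first-generation cross of C57BL/6J with CAST/EiJ. There was 1 group of 2 replicates. The labels number a separate animal for each replicate but give both the same donor identifier, so the spread between them may be technical in part. Whole thymus holds many cell types, and the files do not separate the maternal from the paternal allele.

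An imprinted gene is expressed mainly from the copy inherited from the mother or from the father. The mark that sets this is DNA methylation of a control region, laid down in the egg or in the sperm and kept afterwards on that copy alone. At the H19 and Igf2 pair, the insulator protein Ctcf binds the unmethylated maternal control region and keeps distant enhancers away from Igf2, a fetal growth factor, while H19, a long noncoding RNA, is made from the same maternal copy. At many other loci the unmethylated control region is a CpG island promoter, and the zinc finger protein Zfp57 holds methylation on the other copy by binding methylated TGCCGC. With bulk tissue, openness on 1 allele, openness in fewer cells and a weaker opening in every cell cannot be told apart.

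The 3 peaks of the H19 control region are shown first, because footprints lay on the known Ctcf sites in them. They lie on chromosome 7, upstream of H19, at chr7:142581741-142582060, chr7:142580661-142580860 and chr7:142580221-142580440, with centres 3757, 2617 and 2187 bp before the H19 5′ end, and are intergenic in the annotation. The sequences come from the RefSeq copy of GRCm38.p6, the C57BL/6J reference, and CAST/EiJ alleles may differ. Each is written 5′ to 3′ on the minus strand, the strand from which H19 is transcribed, and capitals mark the short Ctcf core, which reads CC, any 4 bases, GG, any base and GGC. Peak 1 is given over its central 300 bp, chr7:142581751-142582050, and the others in full.
H19 peak 1: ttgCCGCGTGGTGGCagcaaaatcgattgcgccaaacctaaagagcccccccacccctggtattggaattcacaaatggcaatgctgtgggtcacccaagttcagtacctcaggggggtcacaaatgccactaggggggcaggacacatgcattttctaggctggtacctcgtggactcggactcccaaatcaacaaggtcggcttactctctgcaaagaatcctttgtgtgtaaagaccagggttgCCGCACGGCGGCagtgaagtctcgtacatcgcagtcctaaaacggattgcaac
H19 peak 2: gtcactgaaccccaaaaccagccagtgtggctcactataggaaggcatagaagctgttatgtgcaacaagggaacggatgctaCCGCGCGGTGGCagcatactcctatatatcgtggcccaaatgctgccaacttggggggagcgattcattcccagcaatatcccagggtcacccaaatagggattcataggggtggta
H19 peak 3: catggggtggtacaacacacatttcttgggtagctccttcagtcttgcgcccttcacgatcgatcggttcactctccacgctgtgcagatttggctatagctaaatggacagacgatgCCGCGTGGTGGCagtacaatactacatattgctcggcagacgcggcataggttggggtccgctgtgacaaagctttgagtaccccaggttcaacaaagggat

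All 3 peaks were present in both replicates. Peak 1 had a score of 1.28 in replicate 1 and 1.22 in replicate 2. The score is the submitters' signal value for a peak, whose unit and scaling are not stated. Peak 2 scored 1.61 and 1.42, and peak 3 scored 1.11 and 0.972. The order of the 3 peaks was thus the same in both replicates. Each score was lower in replicate 2, but by less than the median of all open regions shared by the replicates. The log2 ratios, replicate 2 over replicate 1, were -0.07, -0.18 and -0.19 for peaks 1 to 3, against that median of -0.22. Peak 2 was at or above 50.9% of strict peaks of replicate 1 and 51.5% of those of replicate 2, near the middle of each list. The others ranked lower, peak 1 at 41.8% and 45.2% and peak 3 at 36.1% and 35.6%. The lowest false discovery rate (FDR, a q-value) in the region was 1.72e-23 in replicate 1 and 2.08e-30 in replicate 2, with 1310 and 1279 of its 2001 bp under 0.05.

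Each of the 4 cores in these sequences was overlapped by a footprint in both replicates. Over all open regions shared by the replicates, 70.2% of matches to this core were so overlapped. A footprint is a short stretch protected from cutting inside an open region, as left by a bound protein. The core at chr7:142580766-142580777, in peak 2, was covered whole by footprints at chr7:142580760-142580783 in replicate 1 and chr7:142580762-142580783 in replicate 2. In peak 3 the core at chr7:142580311-142580322 met footprints at chr7:142580304-142580326 and chr7:142580312-142580326. At both of these sites the footprints of the replicates ended at the same base. Peak 1 holds a core near either end: the upstream core at chr7:142582036-142582047 met footprints at chr7:142582039-142582048 and chr7:142582034-142582045, and the other, at chr7:142581792-142581803, met footprints at chr7:142581794-142581814 and chr7:142581783-142581813. The strict peak of replicate 2 covered only chr7:142581741-142581920, so there the upstream core carried a footprint outside the called peak.

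Of these 4 cores, 3 extend to the longer form CCGCG, any base, GG, any base, GGCAG, and the remaining core does not. That form was written down from what is known of the H19 sites, so its presence there is no finding. Searched on both strands of 21 chromosomes, it had 58 matches, of which 18 lay in an open region shared by both replicates. Among the 18, 11 were overlapped by footprints of both replicates, and the 3 at H19 were among these. The letters of Zfp57, TGCCGC, overlap 3 times with the cores of peak 1 and once with that of peak 3, so a footprint there overlies letters of both factors.

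**Figure D1:**
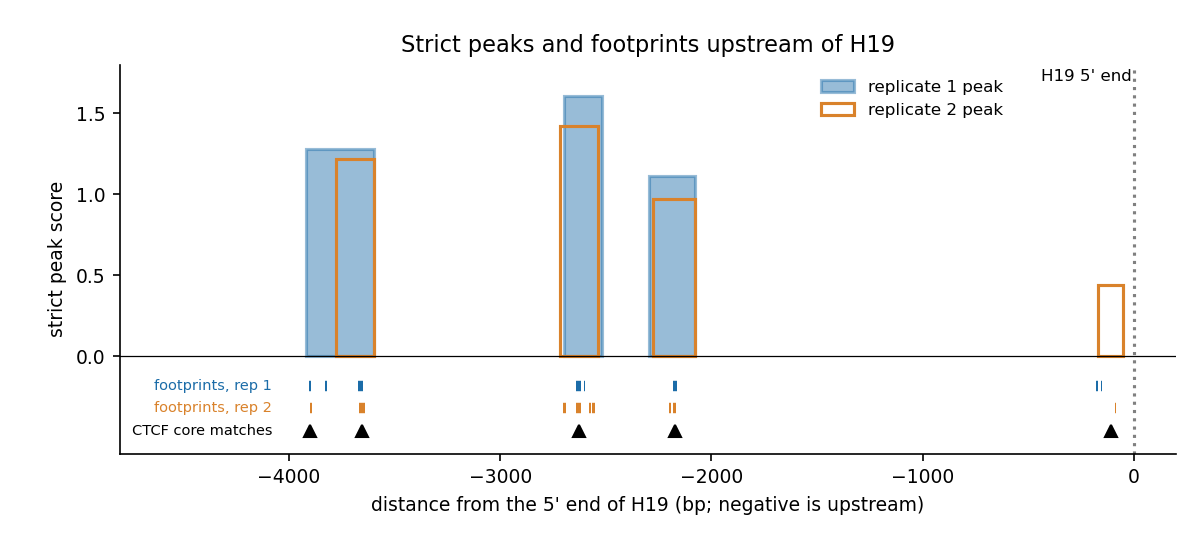
Strict peaks upstream of H19 by distance from its 5′ end in bp (horizontal axis), with bar height as the peak score and bar width as the peak's extent in each replicate. Footprints of each replicate and matches to the short Ctcf core (triangles) are drawn under the axis: 4 matches lie in the control region, each over footprints of both replicates, and a further match lies in the weak peak of replicate 2 at the start of H19.

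The H19 promoter itself was weak. A peak at chr7:142578193-142578314, centred 110 bp before the 5′ end, scored 0.444 in replicate 2 and was not in the strict list of replicate 1, whose looser list held it at 0.489. It carried a Ctcf core with no footprint over it in either replicate. Igf2, lying beyond the control region on the same chromosome, had no strict peak within 20000 bp in either replicate. None of its 9 annotated start sites had a peak of either list, or a stretch with an FDR under 0.05, within 1000 bp. The start site at chr7:142659489 nevertheless has 103 CpG dinucleotides in the 1000 bp centred on it. Its window held 2 looser peaks and 3 footprints in replicate 2 and none in replicate 1.

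Across the 10 loci, 944.247 kb in all, each replicate had 21 strict peaks, and 17 regions were shared, meaning that peaks of both replicates overlapped by at least 1 bp. Genome-wide, 83.8% of the strict peaks of replicate 1 and 79.8% of those of replicate 2 were shared. At least 1 shared region lay in 7 of the 10 windows, against 71.8% of the windows of all protein-coding and long noncoding genes. Kcnq1ot1 had 4 shared regions, H19, Grb10 and Plagl1 had 3 each, Peg10 had 2, and Meg3 and Mest had 1 each. Igf2, Peg3 and Snrpn had none. Scaled by length, the median locus held 1.78 shared regions per 100 kb, against 3.35 for all gene windows. H19 was the densest of the members, at 7.04 per 100 kb, above 73.2% of all gene windows. Shared footprints numbered 31, a median of 2.95 per 100 kb against 9.38.

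The shared peaks of imprinted loci were mostly lower than the general run of open regions. Their median score was 1.11 in replicate 1 and 0.827 in replicate 2, against 1.94 and 1.76 over all 51709 shared regions. Only 2 of the 17 in replicate 1 and 3 in replicate 2 were above those medians: the Kcnq1ot1 promoter peak and an intronic peak of Peg10 in both, and an intronic peak of Grb10 in replicate 2. The shared member peaks held a median of 13 CpG dinucleotides in 300 bp, against 7 over all shared regions, while GC content was 56% and 54%. A footprint of both replicates lay in 15 of the 17, beside 85.5% of all shared regions.

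**Figure D2:**
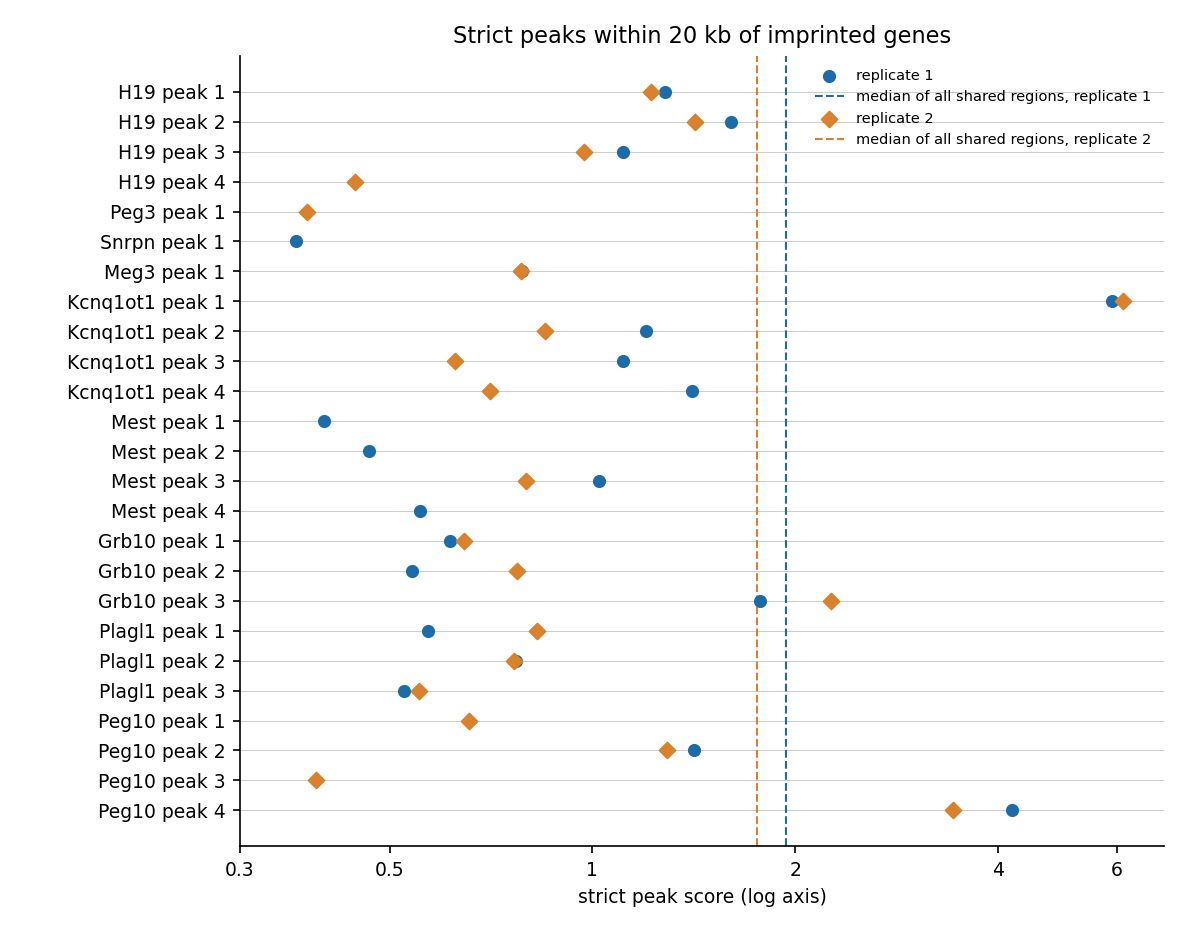
Score of each of the 25 strict peaks of the 10 loci (log axis) in replicate 1 (circles) and replicate 2 (diamonds), with a missing symbol where a replicate had no strict peak; dashed lines mark each replicate's median over all 51709 shared regions. Kcnq1ot1 peak 1 and Peg10 peak 4 lie right of both lines, Grb10 peak 3 right of that of replicate 2, and the others to the left.

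Replicates differed by little at most of these peaks. The log2 score ratio, replicate 2 over replicate 1, ranged from -0.997 to 0.54 with a median of -0.07, and over all shared regions it had a median of -0.22 and an SD of 0.46. Only Kcnq1ot1 peak 4, at -0.997, lay outside the 5th to 95th percentile of all shared regions, -0.85 to 0.64. The 8 peaks found in a single replicate, 4 in each, were weak, with scores from 0.363 to 0.656, and for 6 of them the other replicate had a looser peak at the place.

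Control regions were defined as the stretch 2000 to 4000 bp before H19, the stretch 10000 to 16000 bp before Meg3, and 10 CpG islands of at least 500 bp at Peg3, Snrpn, Kcnq1ot1, Mest, Grb10, Plagl1 and Peg10. The islands are all those overlapping the gene body or within 1000 bp of a start, whether or not known to control imprinting. A shared strict region was found in 6 of the 12. Among the islands it was 5 of 10, beside 41.9% of all CpG islands of that size in the genome. The 6 were the H19 region and an island each of Kcnq1ot1, Mest, Grb10, Plagl1 and Peg10. With the looser lists the count rose to 10, and the remaining pair, the Meg3 stretch and an island inside Peg3, had no peak of any list.

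**Figure D3:**
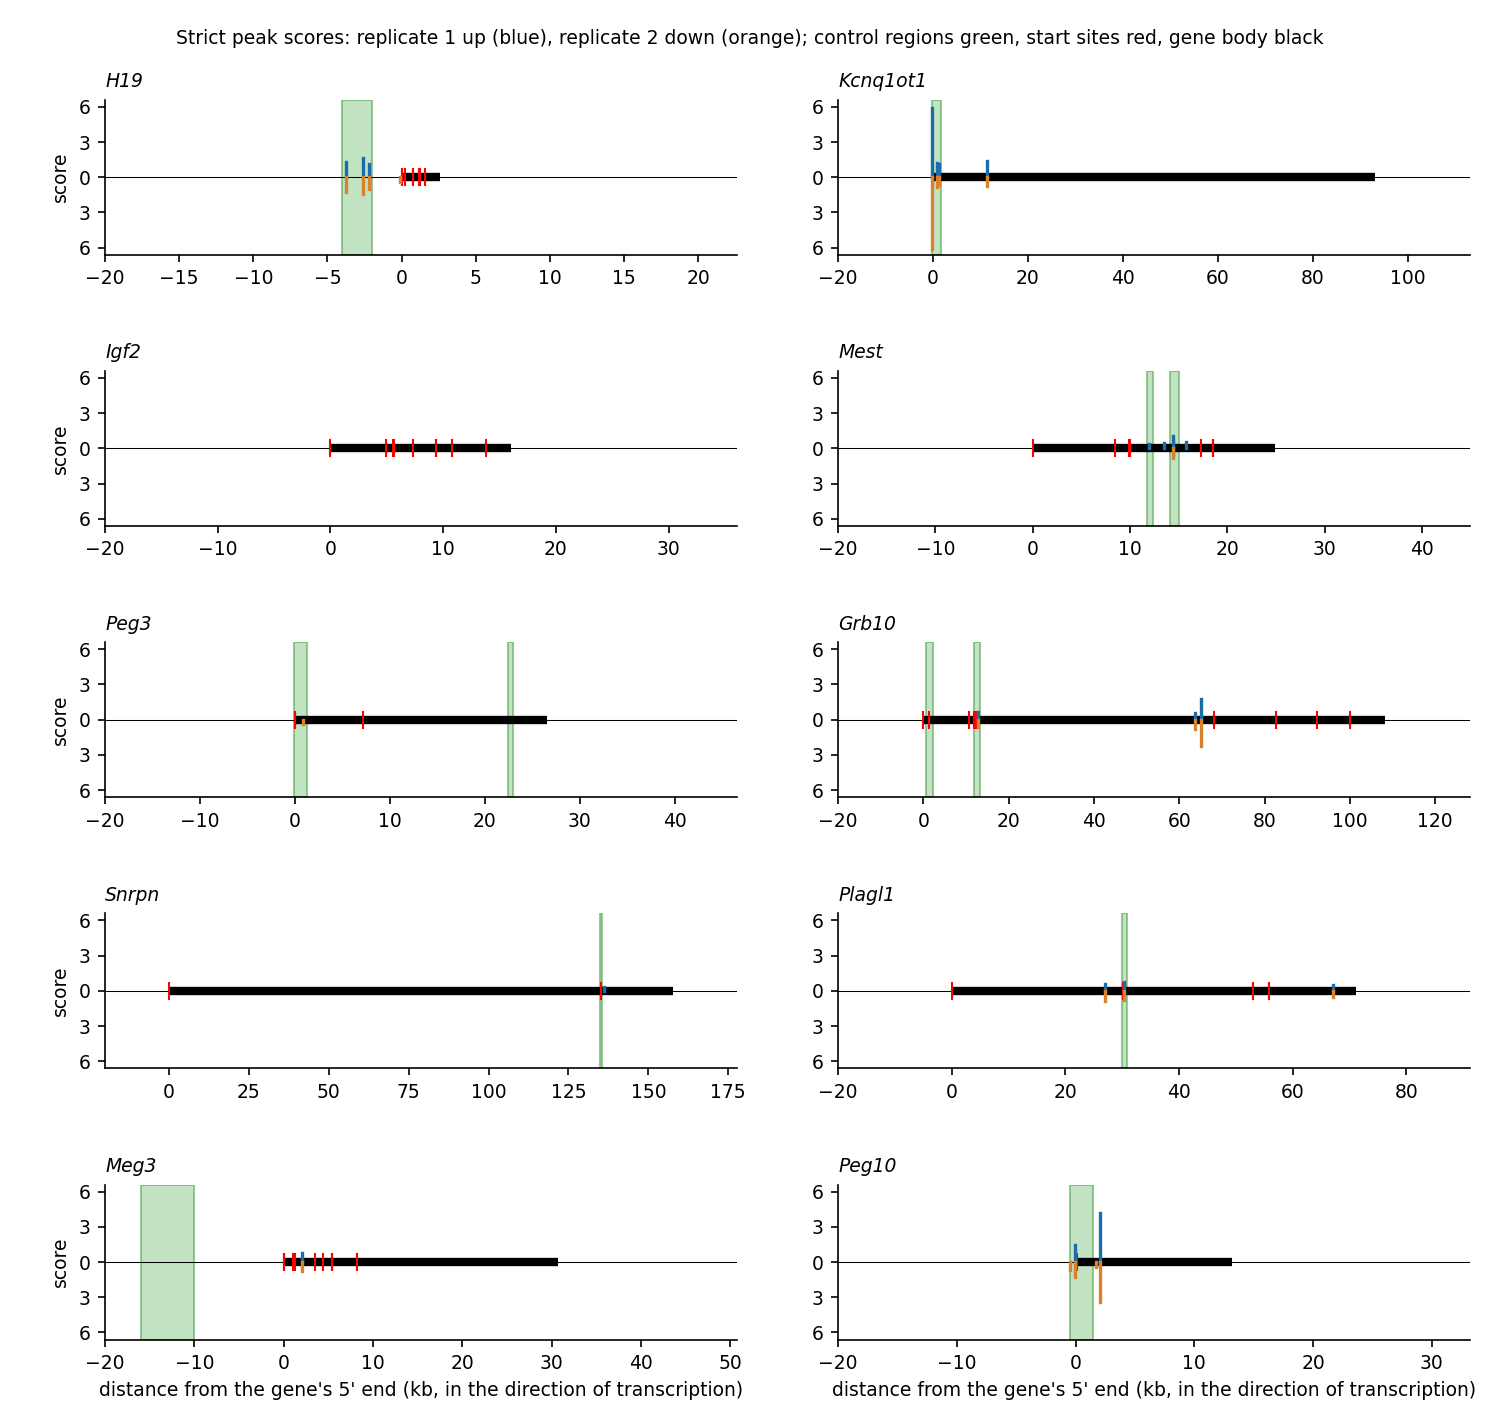
Strict peak scores along each locus by distance from the gene's 5′ end in kb, in the direction of transcription, with replicate 1 drawn upwards and replicate 2 downwards. Control regions are shaded, annotated start sites are red ticks and the gene body is a thick line; H19, Kcnq1ot1, Mest, Grb10, Plagl1 and Peg10 each have a shaded region with peaks in both directions, those of Meg3 and Snrpn hold none, an island of Peg3 holds a peak of replicate 2, and the remaining Mest island a peak of replicate 1.

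Kcnq1ot1 had the highest promoter of the 10. It is a paternally expressed long noncoding RNA, transcribed antisense from inside the gene Kcnq1, and is known to silence its neighbours on the paternal copy. Peak 1, at chr7:143296501-143296820 and centred 111 bp before the start, scored 5.90 in replicate 1 and 6.12 in replicate 2, a mean of 6.01 ± 0.153 (SD, n = 2). That was at or above 84.9% and 89.9% of all strict peaks. Set among 11859 CpG islands that both replicates' peaks touched, it was at or above 41.3% and 54.2% of them, so for an open island it was of middling height.

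The Kcnq1ot1 promoter carried 3 CCAAT boxes, the letters read by the promoter factor Nfy. The search for CCAAT was added after the data had been seen. The central 300 bp, chr7:143296511-143296810, are written 5′ to 3′ on the minus strand, in the direction of transcription, with the boxes in capitals.
Kcnq1ot1 peak 1: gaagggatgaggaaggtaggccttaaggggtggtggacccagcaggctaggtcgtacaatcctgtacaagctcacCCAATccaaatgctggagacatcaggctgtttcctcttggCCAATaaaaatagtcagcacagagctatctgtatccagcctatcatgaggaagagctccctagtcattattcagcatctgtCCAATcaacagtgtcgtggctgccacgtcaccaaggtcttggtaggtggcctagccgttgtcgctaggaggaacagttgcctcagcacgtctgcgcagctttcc

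The boxes are centred 184, 144 and 63 bp before the start, and footprints of both replicates overlapped all 3. The boxes at 184 and 144 bp lay in the same long footprint, of 72 bp in replicate 1 and 56 bp in replicate 2. Over all shared regions, 18.4% of CCAAT matches had footprints of both replicates. This 320 bp peak held 6 footprints in replicate 1 and 7 in replicate 2, some of them long. Any short word in it could readily overlap one, and protection particular to the boxes was not tested. The 17 shared member peaks held 6 matches in 4 peaks, and only the 3 boxes here had such footprints. At least 3 matches in 300 bp occurred in 1.75% of all shared regions, and at least 1 in 28.7%. No Ctcf core and no TGCCGC lay in these 300 bp.

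Inside the Kcnq1ot1 island and downstream of the start, peak 2 at chr7:143295495-143295960 scored 1.20 and 0.851, and peak 3 at chr7:143295241-143295440 scored 1.11 and 0.626. Both were lower in replicate 2. Peak 2 had 31 CpG dinucleotides in its central 300 bp, the most of any member peak, and 3 matches to TGCCGC, which are capitals in the sequence of chr7:143295578-143295877 below, minus strand, 5′ to 3′. At least 2 such matches were found in 1.79% of all shared regions.
Kcnq1ot1 peak 2: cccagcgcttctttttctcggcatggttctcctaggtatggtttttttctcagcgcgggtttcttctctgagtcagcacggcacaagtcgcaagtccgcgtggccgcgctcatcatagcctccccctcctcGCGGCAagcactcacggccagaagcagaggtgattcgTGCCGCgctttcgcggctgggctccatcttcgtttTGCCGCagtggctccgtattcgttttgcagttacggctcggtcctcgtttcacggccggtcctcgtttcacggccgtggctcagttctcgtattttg

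The first in the printed order reads as the reverse complement, and of the 3 it was the only match that footprints of both replicates overlapped, in replicate 1 by 1 base. Peak 4, at chr7:143284961-143285200, lay 11469 bp into the gene outside any island. It scored 1.41 and 0.705, the shared member peak with the log2 ratio farthest from 0.

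Meg3, a maternally expressed long noncoding RNA whose locus also carries many small RNAs, showed no opening in its known intergenic control stretch. That stretch, chr12:109525001-109531001, has 149 CpG dinucleotides and 10 matches to TGCCGC, and in neither replicate did it hold a peak, a looser peak, a footprint or an FDR under 0.05. The only strict peak of the locus, at chr12:109542921-109543100, lay in a Meg3 exon 2009 bp from the 5′ end. It scored 0.785 and 0.784. The sequence is that of the plus strand, 5′ to 3′, and its capitals are the Ctcf core read as its reverse complement. The core, at chr12:109543040-109543051, was overlapped by footprints of both replicates, as were 70.2% of such matches over all shared regions.
Meg3 peak 1: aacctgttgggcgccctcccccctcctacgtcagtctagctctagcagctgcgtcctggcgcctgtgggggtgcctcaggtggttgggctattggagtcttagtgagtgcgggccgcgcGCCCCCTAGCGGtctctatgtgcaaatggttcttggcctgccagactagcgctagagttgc

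Mest, Plagl1 and Peg10 are expressed from the paternal copy and start in CpG islands, and these promoters were open at low scores. Mest, which encodes a hydrolase-like protein and is an early mesoderm marker, had a shared peak at chr6:30737881-30738120 with scores of 1.02 and 0.796, centred 50 bp before the nearest of 3 clustered internal starts. A further 3 Mest peaks were in the strict list of replicate 1 only, at 0.400, 0.467 and 0.556, and in the looser list of replicate 2 at 0.401, 0.407 and 0.407. Mest was thus the member with the most peaks in a single replicate. Plagl1, a zinc finger protein that restrains growth, had its island peak at chr10:13090521-13091100, at 0.770 and 0.766, over a cluster of starts inside the gene, with its centre 30306 bp from the 5′ end. Its 5′ end had a looser peak of 0.267 in replicate 1 alone.

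The other Plagl1 peaks were shared too. The intronic peak 1, at chr10:13087321-13087520, scored 0.570 and 0.827. Peak 3, at chr10:13127425-13127583, scored 0.526 and 0.553 and lay in a coding exon. It was the only member peak with the general Ctcf form (CCA, any 2 bases, AGG, any base, GGC), at chr10:13127507-13127518, and footprints of both replicates overlapped it, as they did 93% of such matches over all shared regions. The plus strand is given 5′ to 3′, with the match in capitals as its reverse complement.
Plagl1 peak 3: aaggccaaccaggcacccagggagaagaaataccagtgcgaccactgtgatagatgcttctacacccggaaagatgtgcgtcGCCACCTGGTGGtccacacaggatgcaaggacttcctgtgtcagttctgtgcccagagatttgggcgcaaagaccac

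Peg10 is a gene derived from a retrotransposon and needed for the placenta. It starts head to head with Sgce, a sarcoglycan gene that is imprinted too, and the peak at chr6:4747081-4747400 covered the start of both. It scored 1.41 and 1.29. The highest peak of the locus was not the promoter but peak 4, at chr6:4749241-4749460, in an intron 2044 bp from the 5′ end. It scored 4.20 in replicate 1 and 3.43 in replicate 2, at or above 78.7% and 79.2% of strict peaks, and held 4 shared footprints. Peaks 1 and 3 of Peg10, at 0.656 and 0.389, were in replicate 2 only, and no looser peak of replicate 1 met them. In replicate 1 the stretch of peak 1 still had an FDR down to 6.86e-10.

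Grb10 encodes an adaptor that damps insulin and growth factor signalling, and is known to be expressed from the maternal copy in most tissues and from the paternal copy, at an internal CpG island, in neurons. It was the internal island, chr11:12025411-12026710, that held a shared peak, at 0.615 and 0.644. The island near the upstream start, chr11:12036361-12038150, had 217 CpG dinucleotides, the most of the 12 control regions, but no strict peak. Looser peaks there scored 0.281 and 0.261, and the lowest FDR was 0.00696 and 0.0204. The highest Grb10 peak was intronic, at chr11:11973501-11973680, with 1.77 and 2.26 and 3 shared footprints. A second intronic peak, at chr11:11974962-11975240, scored 0.541 and 0.772. These peaks were both higher in replicate 2.

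Peg3 and Snrpn had no shared peak. Peg3, a paternally expressed zinc finger gene, had a peak of 0.377 in replicate 2 at chr7:6729581-6729660, in the island at its start and in an intron, 811 bp from the 5′ end. The looser list of replicate 1 held it at 0.289, with a lowest FDR of 0.0337 against 4.88e-05 in replicate 2. It is shown because it contains AAGATGGC, the core of the factor Yy1, which is known to bind the Peg3 control region; the core, at chr7:6729589-6729596, was overlapped by a footprint of replicate 2 and by none of replicate 1. The minus strand is given 5′ to 3′, in the direction of Peg3 transcription, with the reverse complement of the core in capitals.
Peg3 peak 1: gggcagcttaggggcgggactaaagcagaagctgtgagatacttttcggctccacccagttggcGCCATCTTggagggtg

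Snrpn encodes a protein of the splicing machinery and carries the control region of the Prader-Willi locus. Its island, chr7:60004661-60005330, had no strict peak, and the lowest FDR in it was 0.00447 in replicate 1 and 0.0102 in replicate 2. A strict peak of replicate 1, at chr7:60003976-60004288, lay 979 bp downstream of the internal start at 0.363, and the looser list of replicate 2 held it at 0.213.

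Counted by promoter, 6 of the 10 genes had a strict peak within 1000 bp of an annotated start in both replicates. Among the protein-coding members it was 4 of 7, beside 59% of all protein-coding genes. Among the noncoding members it was 2 of 3, beside 24.3% of long noncoding genes. In replicate 1 there were 7 and in replicate 2 there were 8, and Igf2 alone had none. Counting only the gene's own 5′ end left Kcnq1ot1 and Peg10.

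The open promoters of the members were low for their class of gene, except that of Kcnq1ot1. The median of the 6 was 0.847, against 6.83 for the 12935 accessible protein-coding genes and 4.07 for the 2469 accessible noncoding ones. Mest, at 0.909 ± 0.160 (SD, n = 2), was at or above 5.68% of accessible protein-coding promoters, Grb10, at 0.630 ± 0.0208, at or above 2.71%, and Plagl1, at 0.768 ± 0.00325, at or above 4.25%. Peg10, at 1.35 ± 0.0894, reached 9.92%. Meg3, at 0.785 ± 0.00084, was at or above 7.21% of accessible noncoding promoters and Kcnq1ot1 at or above 62.8%. The scale of the score may differ between replicates, so an SD this small does not measure their agreement. By rank, the Meg3 peak was at or above 22.0% of strict peaks of replicate 1 and 26.2% of those of replicate 2. From the highest, the order was Kcnq1ot1, Peg10, Mest, Meg3, Plagl1 and Grb10, the same in both replicates, but the neighbours Mest, Meg3 and Plagl1 were close: the lower value of Mest, 0.796, was just above the 0.785 of Meg3. Compared as islands with the 11859 touched by peaks of both replicates, the Mest, Grb10, Plagl1 and Peg10 islands were at or above between 2.43% and 12.2%.

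**Figure D4:**
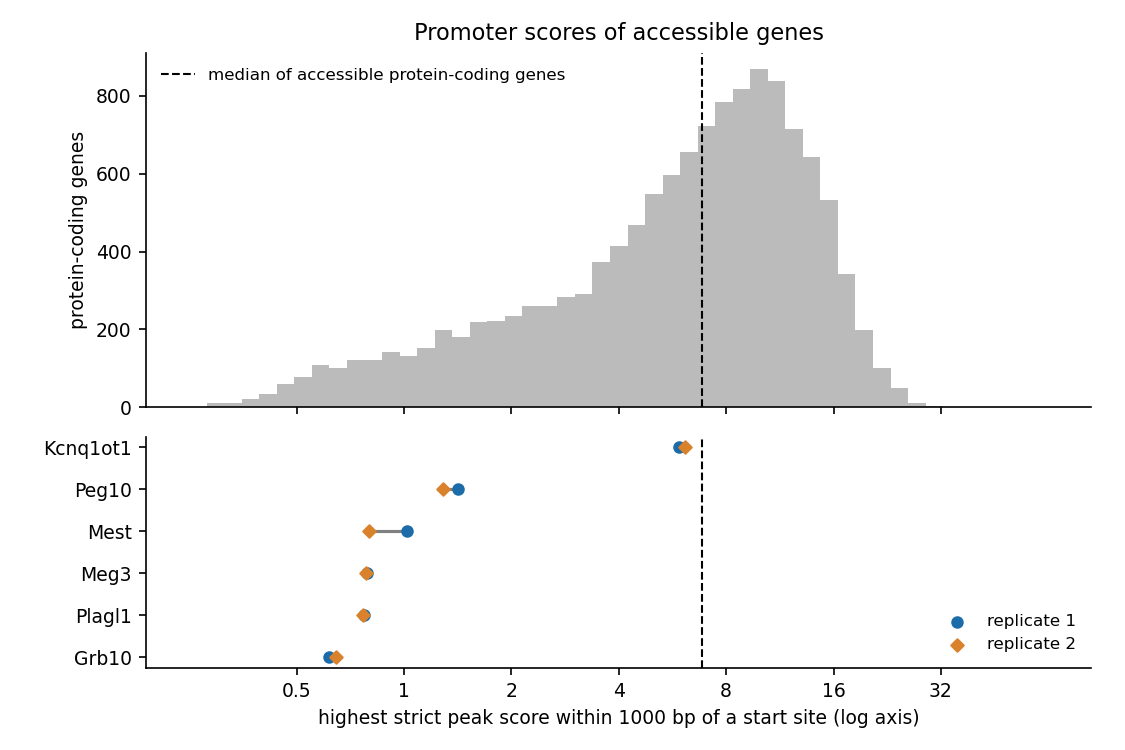
Upper panel: mean promoter score (log axis) of the 12935 protein-coding genes with a strict peak within 1000 bp of a start in both replicates. Lower panel: the same score of the 6 accessible imprinted genes in each replicate. All 6 lie left of the dashed protein-coding median of 6.83, with 5 of them below 2. Meg3 and Kcnq1ot1 are noncoding, and Kcnq1ot1 lies above the median of accessible noncoding genes, 4.07, which is not drawn.

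Sequence letters of the 17 shared member peaks were read on both strands of 300 bp. TGCCGC was in 6, or 35.3%, beside 12.96% of all shared regions. The member peaks also had more CpG dinucleotides, and how far that accounts for the match was not tested. In these windows TGCCGC had 12 matches, of which 6 were overlapped by footprints of both replicates, beside 24.6% in the same windows of all shared regions. Of the 6, 4 are the H19 matches that overlap Ctcf cores. Plagl1 peak 2, longer than its window, held 3 more matches outside it, with no footprint over them. The short Ctcf core was in 7 of the 17 beside 22.5%, and 7 of its 8 matches were overlapped by footprints of both replicates, beside 70.2%. The exception is the core at chr7:143285151-143285162 in Kcnq1ot1 peak 4, which no footprint of either replicate overlapped, although that peak held 2 shared footprints elsewhere. The H19 control region supplies 3 of the 7 peaks and 4 of the 8 matches. Those sites were known beforehand, so no excess is read from either count. The stricter pair of Ctcf forms was in 4, beside 8.12%, but 3 of these are the H19 form (beside 0.0329%), whose letters were taken from the H19 sites, and nothing is read from them. The general form alone was in 1 of the 17, or 5.88%, beside 8.09%.

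Other letters were near their background or absent. GGGCGG, of the Sp and Klf factors, was in 6 of 17 beside 31.7%, and 1 of its 8 matches was overlapped by footprints of both replicates, beside 51.2%. AAGATGGC, of Yy1, and the Nrf1 palindrome (GCGCA followed at once by TGCGC) were in the window of the same Meg3 peak and in no other, beside 2.93% and 0.694%. CCGGAAG, of the Ets factors, and TGTGGTT, of the Runx factors, both prominent in T cells, had no match in these windows, beside 8.07% and 8.65% of all shared regions. No match says only that these letters were not in these windows.

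Other imprinted genes had a higher median among their open promoters. In a list of 48, 24 had a promoter peak in both replicates (50%), which lies between the 59% of all protein-coding genes and the 24.3% of long noncoding ones, and 20 had none in either. The open ones had a median of 3.81 and a range from 0.644 to 17.1. The highest were Inpp5f at 17.1 ± 3.66, Copg2 at 13.4 ± 2.95, Commd1 at 11.7 ± 2.51, Ube3a at 11.5 ± 3.27, Tssc4 at 10.6 ± 3.09 and Trappc9 at 9.06 ± 1.40 (SD, n = 2 each). Several of these are neighbours or hosts of a control region and are imprinted in some tissues only: Ube3a, a ubiquitin ligase, is imprinted in neurons. Calcr, Dcn and Ddc were among those with no peak. Sgce shares the Peg10 peak, and Usp29 shares the Peg3 peak of replicate 2.

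**Figure D5:**
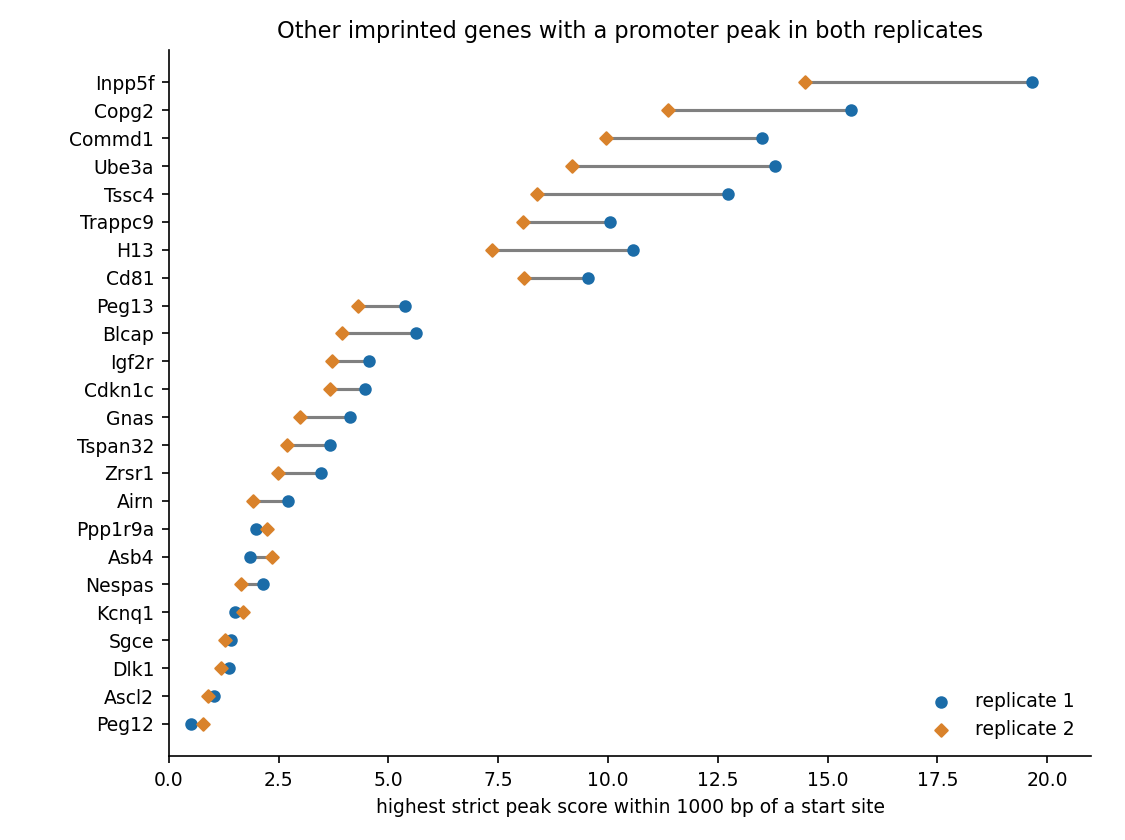
Highest promoter score in each replicate (horizontal axis) of the 24 other imprinted genes with a promoter peak in both replicates, joined by a line. Inpp5f leads at 19.7 and 14.5, and the 6 highest genes all score lower in replicate 2.

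Of 16 genes that keep or read the imprint, 13 had a promoter peak in both replicates (81.25%), beside 59% of all protein-coding genes. Yy1 stood at 15.6 ± 3.63, Uhrf1, which brings the methyltransferase to newly copied DNA, at 12.98 ± 2.49, Dnmt1, that methyltransferase, at 12.97 ± 4.11, and Ctcf at 11.4 ± 2.995. Ezh2, a Polycomb methyltransferase, was at 11.3 ± 2.46 and Trim28, the partner of Zfp57, at 10.1 ± 4.77. Zfp57 itself had no peak, and neither did Dnmt3l or Dppa3, genes known from germ cells and early embryos.

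The thymocyte markers matched the tissue label. All 12 had a promoter peak in both replicates, beside 59% of all protein-coding genes, with summed scores of 96.8 and 62.6. Of the markers of other cells, 1 of 6 had one for thymic epithelium, with Foxn1 and Psmb11 at none, and 2 of 5 for fibroblasts. It was 3 of 5 for endothelium, near that 59%, and 1 of 4 each for B cells, macrophages and erythroid cells. For adipocytes it was 1 of 3. These lists are short, so little can be read from their shares. The lists differ in length, so summed scores are not compared between them. Summed scores were 1.90 and 1.53 for epithelium, 6.51 and 6.90 for fibroblasts and 6.90 and 6.91 for endothelium. They were 4.87 and 4.08 for B cells, 2.10 and 1.13 for macrophages, 1.01 and 0.517 for erythroid cells and 2.73 and 3.21 for adipocytes. The share of the member peaks that comes from these cells was not tested. Sequencing depth is not stated. The scores were whole multiples of a step, within 0.05 of a step, and a strict peak of median score came to 213 steps in replicate 1 and 226 in the other. Replicate 1 had 62230 strict peaks and 291716 footprints, and replicate 2 had 66839 and 295617. A weak member peak such as that of Snrpn held 49 steps and the Kcnq1ot1 promoter 797 and 1007.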

How the data were processed

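DNase-seq of mouse thymus was analysed from 4 kinds of interval list per replicate, all on mm10 per the deposited file descriptions. A signal value per peak, used here as the score, stands in the peak lists that the authors deposited. Each replicate has a longer (looser) and a shorter (strict) list. In the deposited FDR tracks every stretch has a q-value, and only those under 0.05 appear. Deposited footprints hold the same score of 0.01 throughout and served as positions. Replicates were not pooled by the authors, per the deposited file descriptions. Aligner, peak caller and footprint tool were not given in the sources used here. Sequencing reads were not analysed here.

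Overlapping entries of a list were joined, keeping the highest score. Peaks were shared at an overlap of 1 bp. Genes and start sites came from GENCODE M21 and sequence from RefSeq's GRCm38.p6. CpG islands were merged 200 bp windows with a GC content of at least 50% and an observed to expected CpG ratio of at least 0.6. With 1 group of 2 replicates no test between groups was possible, so counts and scores are descriptions, set beside the same quantity over all genes or regions. The members and lists were chosen with earlier results of these data known. All 10 members are named, with the 6 highest and the first 3 absent genes of the other lists in alphabetical order. The peak overlap, Ctcf motif search and CpG island steps were tested on simulated data, and the other steps were not. The tools were pysam 0.24.0, pandas 2.3.3, matplotlib 3.10.9, scipy 1.17.1 and numpy 2.4.6 under Python 3.11.15.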

Additional observations from a re-analysis of the deposited data

How the results depend on the processing

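The 17 shared member peaks became 27 with the looser lists and 9 with the 50000 highest peaks of each replicate; with either replicate alone the count was 21. The 31 shared footprints became 67 to 81 with either replicate alone. Members with an open promoter fell from 6 to 3 with the 50000 highest peaks, and to 2 with only the 5′ end. Among those highest peaks, Grb10, Meg3 and Plagl1 had no promoter peak in both replicates. The Meg3 and Plagl1 loci then had no shared peak, and the Grb10 locus kept 1. The median promoter score over all 10 members, 0.699, was 0.426 within 500 bp, where Meg3 was at 0, and 0.776 within 2500 bp. With scores scaled by each replicate's median peak score, Meg3 was at 0.788 and Plagl1 at 0.772, shifts beyond their SD. Control regions with a shared region rose from 6 to 10 with the looser lists. Peaks with a Ctcf match rose from 4 to 7 with the short core alone. Within 50000 bp H19 had 6 and Igf2 had 2 shared peaks. No paired analysis was possible because both samples form 1 group. The causes were not tested. A pair of samples allows no test, the score's scale factor is unknown, and a weak peak may be missed at lower depth.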
